A study of Homo sapiens with 6 samples.

Results

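The broad H3K27ac domains of HSC3 cells were the H3K27ac regions of at least 2500 bp in cells transfected with a control siRNA, on chromosomes 1 to 22 and X. They numbered 333 of the 19705 H3K27ac regions called in these cells, or 1.69%, and spanned 1.01 Mb, or 5.84% of the length that the mark covered. HSC3 is an established cell line of oral squamous cell carcinoma (OSCC). The cells were transfected for 72 h with a control siRNA (siCONT) or with an siRNA against the lncRNA DLEU1 (siDLEU1), and chromatin immunoprecipitation-sequencing (ChIP-seq) was performed for H3K27ac and for H3K4me3. There was 1 library for each siRNA and mark, so the spread between replicates is unknown and nothing was tested. The knockdown libraries were made with the siRNA named siDLEU1-2, and another siRNA against DLEU1 was not sequenced here. The domains were chosen by their width in control cells, which is therefore a description. The question was how much of each domain was still called after DLEU1 knockdown, which genes the domains covered, and where along a domain the calls were lost.

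H3K27ac, acetylation of lysine 27 of histone H3, marks active promoters and enhancers and is written by acetyltransferases of the CBP family. H3K4me3, trimethylation of lysine 4, is written by COMPASS methyltransferases and lies at the transcription start sites (TSSs) of active genes. At an active promoter, the TSS itself is largely free of nucleosomes, and both marks are carried by the nucleosomes on either side. The widest acetylated regions of a cell often lie at genes that are strongly transcribed or that mark its identity.

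The libraries differed in depth. Solving the values of each region for whole fragments, with an assumed genome of 2.7 Gb, gave 21.5 M reads for control H3K27ac and 29.4 M after DLEU1 knockdown. For H3K4me3 the depths were 28.4 M and 22.3 M. In the same solution, fragments were scaled to a background library of 7.18 M reads for control and 6.73 M for siDLEU1 H3K27ac. Total reads therefore do not give the depth at which regions were called. The 17672 regions of the siDLEU1 H3K27ac list had a median width of 608 bp, compared with 750 bp in control cells. Regions were found at the TSSs of 8 of 8 epithelial marker genes and of 1 of 14 markers of blood, endothelial, neural, muscle and liver cells in control cells.

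Sequences of the domains are given first, from GRCh37 (hg19), on the plus strand. Capitals mark the GC box (GGGCGG), the CCAAT box (CCAAT) and the cyclic AMP response element (TGACGTCA) in either orientation. The 300 bases around the summit are shown for MALAT1, the widest domain (chr11:65268805-65269104), and for ZBTB25, the widest of the domains still called over their whole length (chr14:64970015-64970314). For PLAU, the least retained domain among the genes of the lists, the 59 bases of the summit window that lie outside annotated UTRs are shown (chr10:75671224-75671282). None is shown for NGFR, the least retained domain of all, because its window is annotated as UTR.
MALAT1 summit: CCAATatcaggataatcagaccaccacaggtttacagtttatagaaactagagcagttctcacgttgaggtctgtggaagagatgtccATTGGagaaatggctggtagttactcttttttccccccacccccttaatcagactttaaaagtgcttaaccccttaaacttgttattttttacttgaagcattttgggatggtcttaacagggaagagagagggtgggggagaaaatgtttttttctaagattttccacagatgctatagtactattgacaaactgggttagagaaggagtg
ZBTB25 summit: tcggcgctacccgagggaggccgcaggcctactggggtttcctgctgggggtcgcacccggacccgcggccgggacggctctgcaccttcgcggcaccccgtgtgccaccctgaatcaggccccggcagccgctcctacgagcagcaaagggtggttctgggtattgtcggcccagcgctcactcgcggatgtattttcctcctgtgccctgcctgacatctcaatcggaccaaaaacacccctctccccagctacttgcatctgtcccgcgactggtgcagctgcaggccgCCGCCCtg
PLAU summit: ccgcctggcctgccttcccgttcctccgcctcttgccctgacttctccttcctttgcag
No GC box, CCAAT box or response element was found in the PLAU stretch. The MALAT1 window, in a gene body, had a GC content of 40.3%, and the ZBTB25 window, at a promoter, one of 67.0%.

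The second set holds stretches that lay inside a control domain but between siDLEU1 regions, so that they show what was no longer called. These 5 were chosen after the values were seen, because each lay in the domain of a histone, chromatin or cell cycle gene. They are the gaps at H2AC6 (chr6:26124171-26124372), ANP32A (chr15:69113255-69113406), H2AC19 (chr1:149823877-149824096), CDK6 (chr7:92465892-92466057) and CCND1 (chr11:69455757-69455874). The H2AC6 stretch lies between the divergent histone genes H2AC6 and H2BC4, and its last bases, annotated as UTR, are left out. The stretch named H2AC19 is not at the TSS of that gene. It begins downstream of the gene, whose TSS is at 149822628 on the plus strand and whose length is 534 bp. The same domain also holds the histone gene H3C15 whole.
H2AC6 gap: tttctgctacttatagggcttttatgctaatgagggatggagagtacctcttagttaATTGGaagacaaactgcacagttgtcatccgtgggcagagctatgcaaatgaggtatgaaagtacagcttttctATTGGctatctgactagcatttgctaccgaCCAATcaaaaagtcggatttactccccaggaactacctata
ANP32A gap: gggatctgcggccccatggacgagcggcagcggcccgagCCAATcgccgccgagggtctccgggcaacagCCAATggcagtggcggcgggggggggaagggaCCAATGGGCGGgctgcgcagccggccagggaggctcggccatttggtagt
H2AC19 gap: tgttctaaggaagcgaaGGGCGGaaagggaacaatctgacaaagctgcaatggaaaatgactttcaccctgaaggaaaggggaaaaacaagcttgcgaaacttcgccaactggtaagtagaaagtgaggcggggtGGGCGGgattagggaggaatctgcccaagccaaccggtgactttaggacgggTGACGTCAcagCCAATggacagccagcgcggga
CDK6 gap: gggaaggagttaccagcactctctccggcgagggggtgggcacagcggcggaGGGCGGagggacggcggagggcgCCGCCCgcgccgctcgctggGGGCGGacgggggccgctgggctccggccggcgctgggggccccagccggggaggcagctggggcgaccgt
CCND1 gap: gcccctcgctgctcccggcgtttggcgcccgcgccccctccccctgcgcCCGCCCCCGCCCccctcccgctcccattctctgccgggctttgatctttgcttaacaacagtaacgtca
The H2AC6 and ANP32A gaps each held 3 CCAAT boxes, and that of ANP32A also 1 GC box next to a CCAAT box. The H2AC19 gap held 2 GC boxes, 1 CCAAT box and 1 response element. The CDK6 gap held 3 GC boxes and the CCND1 gap 2. These are matches of letters and are not evidence that a factor was bound.

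In control cells the width of the domains ranged from 2502 to 7012 bp, with a median of 2840 bp and quartiles of 2649 and 3160 bp. Only 23 domains were at least 4000 bp wide, and 7 were at least 5000 bp wide. The last 5 inside the limit were MSMO1 (2502 bp), ZZZ3 and SH3RF2 (2503 bp each), PRPF38B (2505 bp) and MYL12B (2506 bp). The first 5 outside it were CRABP2 (2499 bp), FAM72A and FARS2 (2497 bp each), VPS13A (2495 bp) and U2SURP (2494 bp). The limit thus cuts a continuous range of widths, and of these 10 regions the domain at MSMO1 had the lowest share of its length called in siDLEU1 cells. A domain is named here by the genes with a TSS inside it, or otherwise by the nearest gene.

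The widest domains lay at genes of several kinds. The first, of 7012 bp, was at MALAT1, a nuclear lncRNA. Next was a domain of 5941 bp at TNRC18, which also held the lncRNA gene LINC02983 whole. It was followed by ZFP36L1 (5729 bp), which encodes an RNA-binding protein that promotes mRNA decay, and by NEAT1 (5706 bp), the lncRNA scaffold of paraspeckles. The domain at ADM, which encodes the peptide hormone adrenomedullin, was 5681 bp wide and contained the whole gene. MYC, a driver of growth, lay in a domain of 5257 bp, and CDK6, a G1 cyclin-dependent kinase, in one of 5027 bp. Others among the 20 widest were ANP32A, ZNF462, FAT1, TSC22D2, PLAU, H2AC6, EXT1, FOXC1, BCL11A, VMP1, LINC01962 and PPP1R15B, from 4931 to 4167 bp.

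In siDLEU1 cells the wide regions were fewer. The siDLEU1 list held 82 H3K27ac regions of at least 2500 bp, 0.464% of the list, and its widest region measured 5222 bp. From 2000 to under 2500 bp, 595 regions were called in control and 187 in siDLEU1 cells, whereas under 500 bp there were 6290 and 7007. The shift is visible in the plot of regions per width class.

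**Figure D1:**
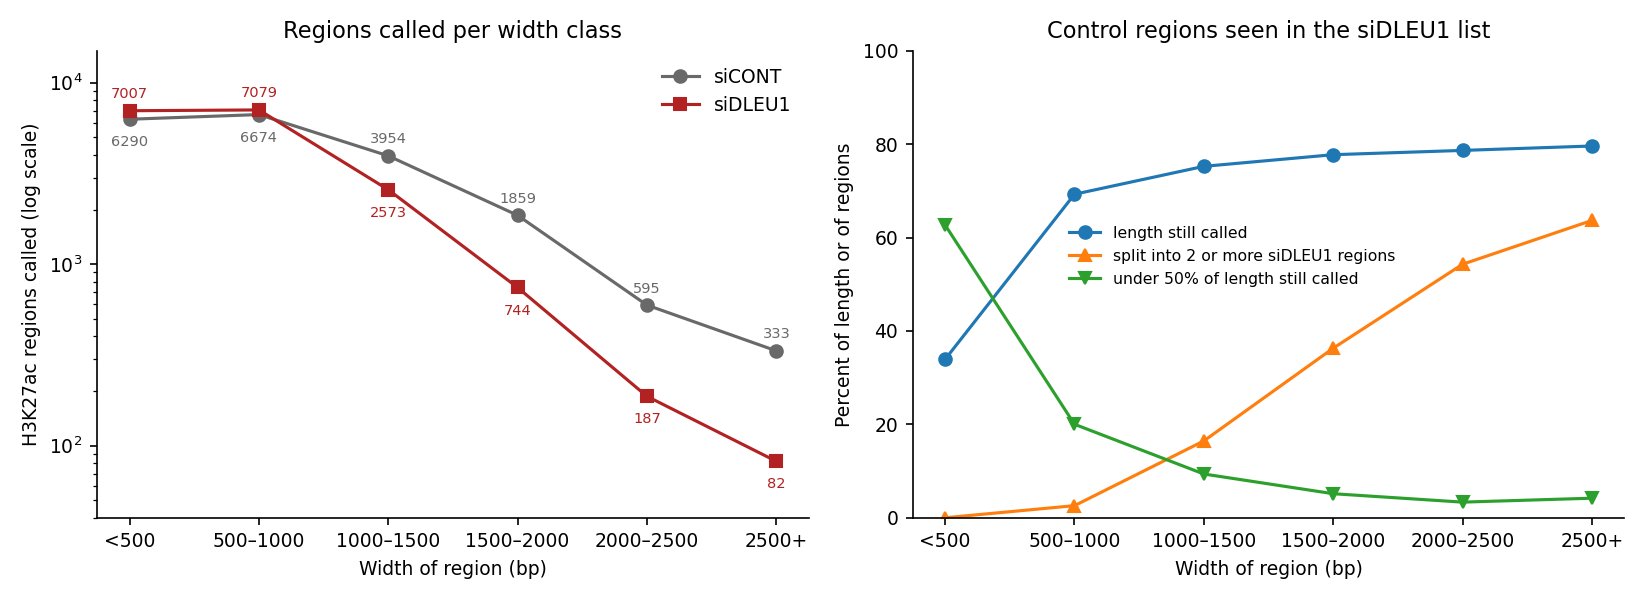
Left, number of H3K27ac regions (log axis) per class of width in bp in the siCONT and siDLEU1 lists. Right, for control regions of each class, the percent of their length called in siDLEU1 cells, and the percent of regions split into 2 or more siDLEU1 regions or with under 50% of their length called. The broad class fell from 333 to 82 regions, and the split share rose with width to 63.7%.

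Nearly all broad domains were still called somewhere. A siDLEU1 region overlapped 332 of the 333 domains, or 99.7% (95% Wilson interval 98.3 to 99.9%; such intervals reflect only how many regions were counted). Over all control regions, 22.2% were not overlapped. Of the bases of the domains, 79.6% were still called, with a median of 82.6% per domain and quartiles of 72.1 and 89.9%. Under 50% of the length was called in 14 domains, 4.20% (2.52 to 6.93%), against a background of 29.3% over all control regions. Among regions of 2000 to under 2500 bp, 78.7% of the bases were called and 3.36% of regions fell under 50%, so the domains resembled the next class in width. A wide region has more room to be overlapped, and the background holds mostly narrow regions.

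Most domains were broken up, however. In 212 of the 333 domains, 63.7% (58.4 to 68.6%), at least 2 siDLEU1 regions were called in place of 1 region. The background over all control regions was 10.3%, and the share was 54.3% at 2000 to under 2500 bp and 36.3% at 1500 to under 2000 bp. There were 120 domains with 1 siDLEU1 region, 154 with 2, 46 with 3, 11 with 4 and 1 with 5, which was the domain of BCL11A, a zinc-finger repressor. In 73 domains, split or not, the widest overlapping siDLEU1 region had a full width of at least 2500 bp. With regions limited to a −log10 q of at least 10 in both lists, the split share was 35.4%, and the share of domains under 50% rose to 17.7%.

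**Figure D2:**
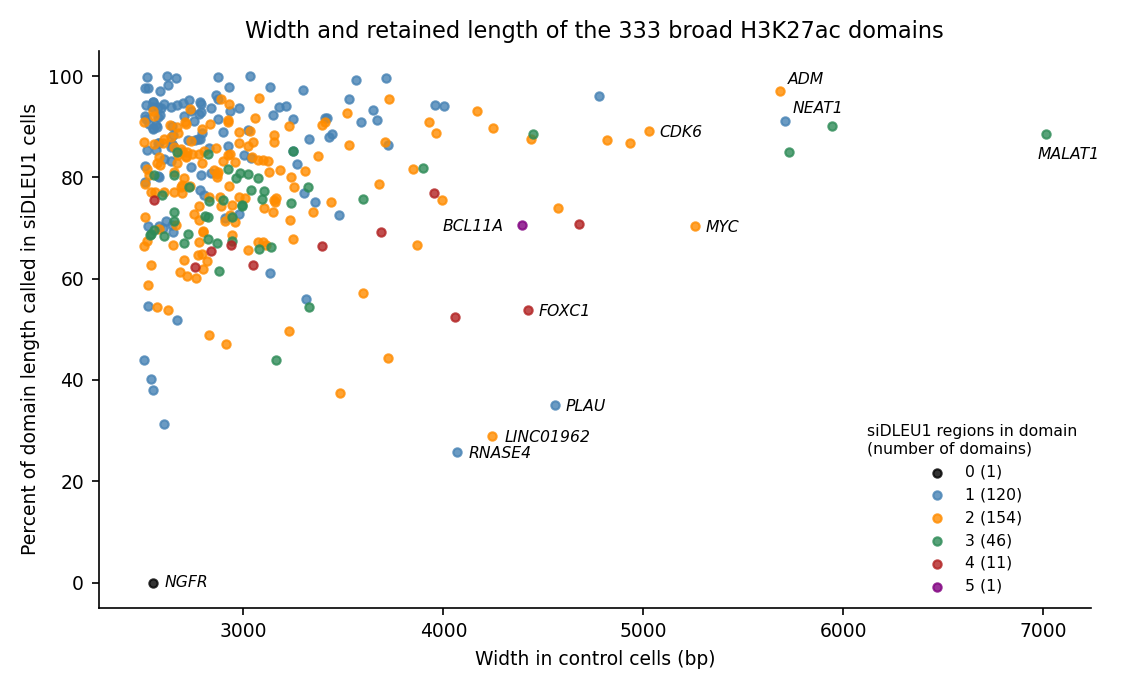
Width of each of the 333 domains in control cells (bp) against the percent of its length called in siDLEU1 cells, 1 point per domain, coloured by the number of siDLEU1 regions in it. The wide domains at ADM (97.1%) and MALAT1 (88.6%) lie near the top, PLAU (35.0%), LINC01962 (29.0%) and RNASE4 (25.8%) stand below domains of like width, and NGFR lies at 0%.

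The missing bases, 0.206 Mb in all, were mostly at the ends. Edges accounted for 133 kb, or 64.6% of the loss, and gaps between siDLEU1 regions for 70.5 kb, or 34.2%. The remaining 2.55 kb were the domain at NGFR. The median loss was 117 bp per edge in domains and 62 bp over all overlapped regions, but as a share of the length the loss at both edges was smaller in domains, with a median of 10.3% compared with 18.3% over all overlapped regions. The position of the control summit was still called in 332 domains, against a background of 76.7% over all control regions and 99.8% at 2000 to under 2500 bp.

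The opposite comparison was made because regions chosen for width in 1 list tend to be narrower in the other. Of the length of the 82 siDLEU1 regions of at least 2500 bp, 97.1% was called in control cells. The median per region was 100%, the lowest 63.8%, and 5 of the 82, 6.10% (2.63 to 13.5%), were split. In control cells 74 of them overlapped a broad domain. The loss of width was therefore not the same in both directions in these 2 lists.

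The 10 least retained domains lay at genes of several kinds. NGFR, which encodes the low-affinity nerve growth factor receptor found on basal epithelial cells, had a domain of 2546 bp (chr17:47572711-47575256) with no siDLEU1 H3K27ac region. H3K4me3 covered 79.7% of it in control and 15.3% in siDLEU1 cells. The control H3K27ac summit was low for a domain, at 47.7 times the genome-wide expectation. Only alternative TSSs of NGFR lie in this domain, not the canonical TSS. In the domain shared by RNASE4 and ANG, a pair of secreted ribonuclease genes, 25.8% of 4066 bp was called, as a single region. The share was 29.0% at LINC01962, a lncRNA gene, and 31.4% at a domain between genes near ANXA2R-OT1.

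PLAU, which encodes the urokinase plasminogen activator, had the largest loss at 1 end. Of its 4559 bp (chr10:75670138-75674696), 35.0% was called, in a single region of 1597 bp around the 5′ end of the gene, and 2682 bp were lost at the right, downstream edge. Its summit level, defined below, was 118 in control and 51.7 in siDLEU1 cells. H3K4me3 still covered 97.4% of the domain, against 100% in control cells. At MAML3, a coactivator of Notch, 37.4% was called, with 1892 bp missing between 2 pieces. The other low shares were 38.1% at PGAP1, 40.3% at FXYD3, which encodes a regulator of the sodium pump, and 43.9% at the lncRNA gene HCG14. At MSMO1, which encodes an enzyme of cholesterol synthesis, 1401 of 2502 bp were lost. Across the 14 domains under 50%, the median H3K4me3 cover was 95.7% in control and 87.9% in siDLEU1 cells.

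At the other end, 82 of the 333 domains were called over at least 90% of their length. The share of all control regions at this limit is not given here, so the count is a description. The median share called was 82.6% in domains and 80.8% at 2000 to under 2500 bp. Over the whole of their length, 2 domains were called. These were the domain shared by ZBTB25 and ZBTB1, which encode zinc-finger proteins, and that of TLE1, a Groucho-type corepressor. MAT2A, which makes S-adenosylmethionine, and EWSR1, an RNA-binding protein gene, were called over 99.9 and 99.7%. RREB1 had 99.5%, MIR23AHG, the host of the miR-23a cluster, 99.2%, and GPRC5A, a membrane receptor gene, 98.2%. TXNRD1, which encodes thioredoxin reductase, had 97.9% and MN1 97.8%.

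AEBP1, which encodes a protein of the extracellular matrix, stood apart (chr7:44150279-44153990, 3712 bp). Its domain was called over 99.7% of its length, and it was the single domain with no H3K4me3 region in either list. Its summit level was 92.1 in control and 106 in siDLEU1 cells. The domain holds an alternative TSS of AEBP1 but not its canonical TSS.

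**Figure D3:**
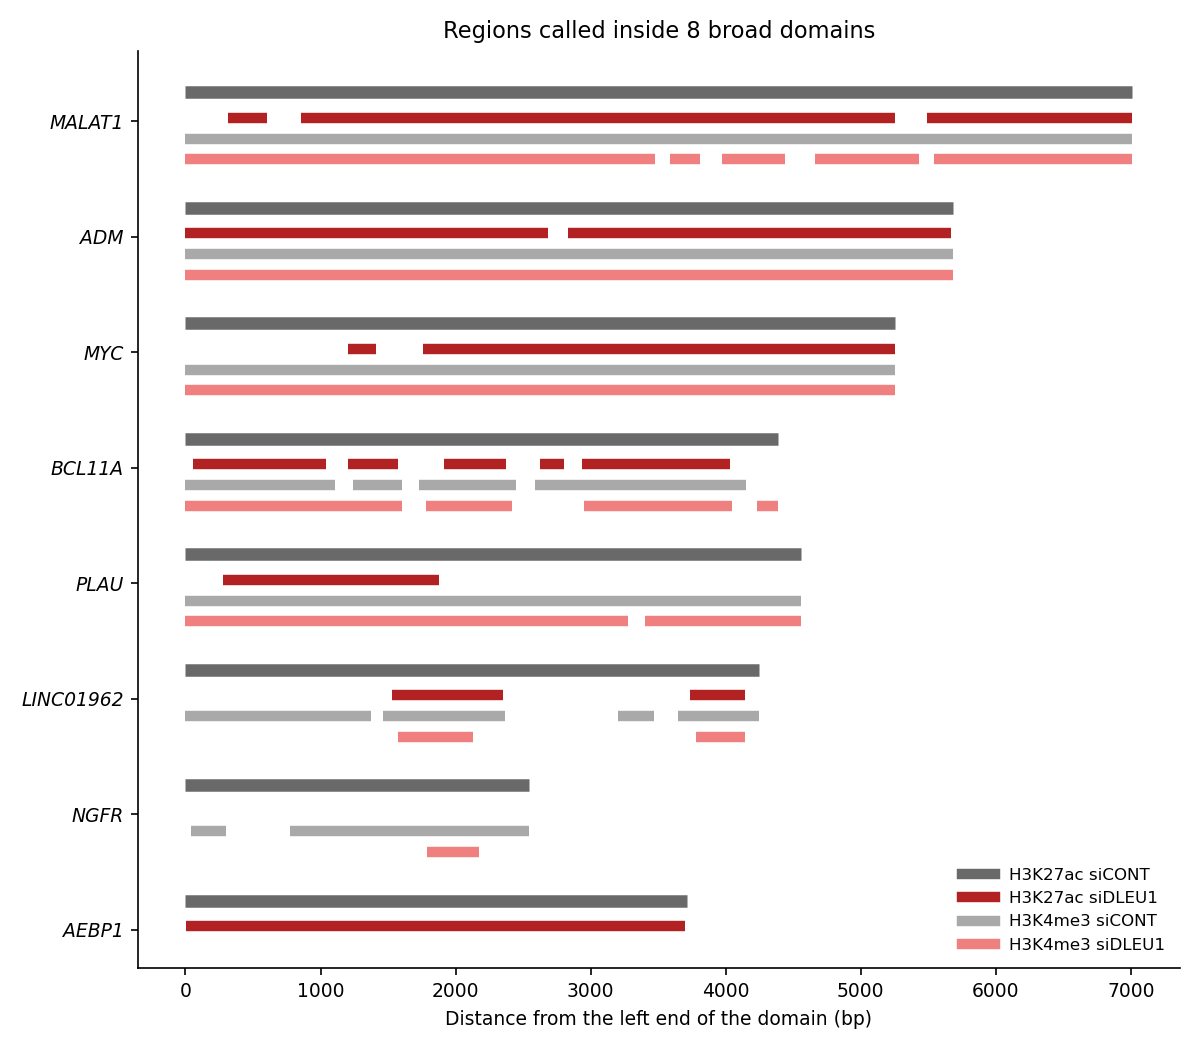
Regions called inside 8 domains, drawn to scale as the distance in bp from the left end of each domain, for H3K27ac and H3K4me3 in siCONT and siDLEU1 cells. BCL11A was cut into 5 H3K27ac pieces, PLAU kept 1 piece near its left end, NGFR kept none, and AEBP1 carried H3K27ac alone.

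The height of the signal was compared by the summit level, the number of fragments at a summit divided by the number expected across the genome in that library. In control cells it ranged from 40.3 to 169 over the domains, with a median of 90.8. In siDLEU1 cells the highest summit inside a domain ranged from 24.5 to 106, with a median of 52.2 over 332 domains. The median ratio was 0.582, and over all overlapped control regions it was 0.621, a difference that was not tested. The level was at most 50% of control in 31 of 332 domains, against a background of 10.0%. It was higher than in control cells in 1 of 332, AEBP1, against a background of 2.90%. The lowest ratio, 0.365, was at GPRC5A, a domain whose width was nearly wholly kept, so height and width did not move together there. The efficiency of each immunoprecipitation is not known, and its part in these ratios was not tested.

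**Figure D4:**
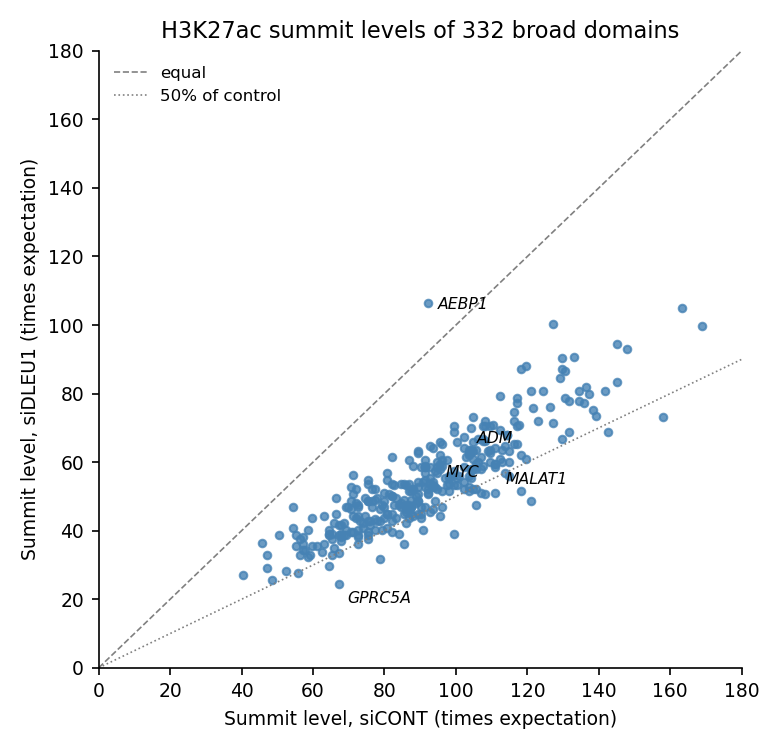
H3K27ac summit level (fragments at the summit as a multiple of the genome-wide expectation in that library) in siCONT and siDLEU1 cells, 1 point for each of 332 domains, with lines at equal levels and at 50% of control. All points but AEBP1 lie below the line of equal levels, at a median ratio of 0.582.

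The fold enrichment of each region was also ranked within its list as a percentile. The domains had a median rank of 85.4 in control cells and a median change of −5.21 points. The rank was lower in 225 of 333 domains, against a background of 71.2%, and higher in 108. The siDLEU1 rank was that of the strongest overlapping region, or 0 where none overlapped, as at 22.2% of all control regions. The median change was −3.59 points at 1500 to under 2500 bp, −4.07 points at 2000 to under 2500 bp and −7.89 points over all control regions. The 333 domains thus fell more than the regions nearest in width. Among the domains, the 119 of at least 3000 bp had a median change of −3.89 points, a smaller fall than at 2000 to under 2500 bp. None of these differences was tested, and no trend with width is read from them. The value over all regions includes those set to 0, so it is not a like comparison. Ranks of single domains depend on a local background set by few control reads, so summit levels are given for them instead.

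H3K4me3, which the choice of domains did not use, covered 93.4% of the domain length in control cells and 86.9% in siDLEU1 cells. Over all control H3K27ac regions it covered 83.7 and 78.4%, a fall of like size. The median per domain was 97.7 and 92.2%. At least 1 H3K4me3 region was present in 332 of 333 domains in both lists. The share was lower in siDLEU1 cells in 207 domains, higher in 66 and equal in 60. Of all control regions with H3K4me3 in either list, it was lower in 50.8% and higher in 28.3%. The H3K4me3 summit level was higher in siDLEU1 cells in 279 of 332 domains, against a background of 76.1%, with a median ratio of 1.20, close to the 1.21 of the other regions. It was at most 50% of control in 0 of 332, against 0.677%. The opposite direction of the 2 marks at their summits was thus seen over the whole list. Of the 212 domains in which H3K27ac was split, 113 held 1 H3K4me3 region in siDLEU1 cells, and in 44 of these it covered the whole domain. Over all 333 domains, H3K4me3 covered the whole of 80 in siDLEU1 cells. It was in at least 2 regions in 136 of the 333 in control and in 123 in siDLEU1 cells. The counts among split domains are therefore not read as a trait of those domains.

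Many of the gaps lay close to a TSS. Between the siDLEU1 pieces of the domains there were 283 gaps, with a median of 193 bp and a range of 116 to 1892 bp. A TSS lay in 116 of them, 41.0% (35.4 to 46.8%), and 173, 61.1% (55.3 to 66.6%), were within 200 bp of one. Of all domain bases, 32.6% were within 200 bp of a TSS. The pattern was not particular to the domains, since 78.8% of the gaps in regions of 1500 to under 2500 bp lay within 200 bp of a TSS. The 5 stretches printed above are among the gaps of the domains.

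The position along the gene was followed in the 216 domains with a TSS of 1 protein-coding gene. These domains ran a median of 869.5 bp upstream and 1993.5 bp downstream of the TSS, and 177 of 216 reached farther downstream. At 100 bp upstream of the TSS, H3K27ac was called in 83.3% of them in control and in 48.1% in siDLEU1 cells. At 250 bp downstream it was called in 100 and 94.9%. Each domain was chosen as 1 uninterrupted control region holding the TSS, so control H3K27ac could show no gap inside it. In the opposite direction, at 42 siDLEU1 regions of at least 2500 bp, control H3K27ac was called in 88.1% at 100 bp upstream. Of the domain bases in the 250 bp before the TSS, 64.9% were still called, against 93.2% of those in the first 1000 bp after it. The far ends were intermediate, at 73.7% more than 250 bp upstream and 72.3% more than 1000 bp downstream.

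H3K4me3 in these domains moved differently around the start. In the 250 bp before the TSS its cover was 84.1% in control and 88.2% in siDLEU1 cells. In the first 1000 bp downstream it was 96.7 and 95.1%. More than 1000 bp downstream it was 91.7 and 76.2%. The plot of calls around the TSS shows the dip in all 4 lists, deepest for H3K27ac in siDLEU1 cells. At 1653 narrower control regions, H3K27ac was called at 100 bp upstream in 79.9% in control and 42.6% in siDLEU1 cells. The drop was thus not particular to the broad domains.

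**Figure D5:**
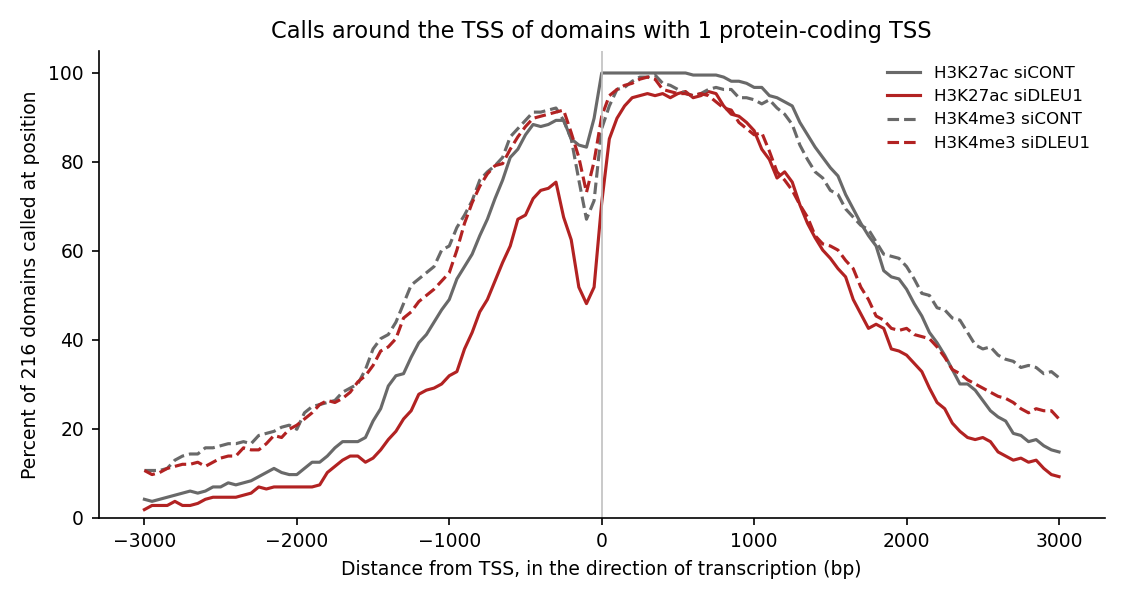
Percent of 216 domains with 1 protein-coding TSS in which a region was called, against the distance from the TSS in bp in the direction of transcription, for H3K27ac and H3K4me3 in siCONT and siDLEU1 cells. At 100 bp upstream the siDLEU1 H3K27ac line drops to 48.1%, while both H3K4me3 lines stay above 67%. By the choice of domains, control H3K27ac has no gap inside a domain.

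Letters of known promoter motifs were counted in windows of 300 bases, on both strands, around gap centres, around the summits of the domains and around the summits of all control regions. CCAAT was found in 33.9% of gap windows, 16.5% of domain summits and 17.7% of all summits. The GC box was found in 62.2, 52.0 and 51.0%, and TGACGTCA in 4.24, 0.300 and 0.330%. TGAGTCA, the AP-1 site, was found in 2.12, 1.50 and 2.68%, and GGAATG, the TEAD site, in 15.9, 10.5 and 11.1%. The NF-kB site, read as GGGA and CC with any 4 bases between, was found in 24.0, 33.0 and 34.7%. The core of the interferon-stimulated response element, read as GAAA and GAAA with any 2 bases between, was found in 4.95, 4.50 and 3.48%, and TGTGGT, the RUNX site, in 9.89, 10.8 and 9.13%. Gaps lay mostly within 200 bp of a TSS, as given above, and the median distance of a domain summit from the nearest TSS was 252 bp. The median GC content was 62.7% at gap centres and 65.7% at domain summits.

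The domains held TSSs of 441 genes, 374 protein-coding and 67 lncRNA genes. This is 1.83% of the 24135 genes considered and 3.72% of the 11841 with a TSS in any control H3K27ac region. A TSS lay inside 311 domains, and in 280 of them it was the canonical TSS of a gene. Of the other 22, 11 lay within 1 kb of a TSS, 1 inside a gene and 10 between genes, as counted over the genes considered. A TSS of another GENCODE gene lay in 12 of these 22. For several of the 10, the nearest gene considered is multicopy, such as NBPF8, NBPF9, PPIAL4A and PPIAL4G, at distances of over 20 kb. Near-identical copies there share reads, and positions are uncertain. TSSs of at least 2 genes were found in 126 domains, and in 123 of these they lay on both strands. Exons of canonical transcripts made up 26.1% of the domain bases, other gene body 58.8%, and sequence outside genes 15.1%.

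Some genes fitted in a domain whole. There were 17, in 15 domains, among them ADM and the histone genes H1-2, H1-5, H2AC7, H2AC16, H2AC19 and H3C15. The heat-shock genes HSPA1A and HSPA1B each lay whole in a domain, of 3043 and 3516 bp, with control levels of 95.5 and 94.8. They are near-identical copies whose reads cannot be told apart with certainty.

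Transcription factors of squamous epithelium were among the members. Of a list of 17, 13 had a control region at a TSS and 4 a broad domain, against the 1.83% of all genes and 3.72% of genes with a region given above. These shares are also the background of the lists that follow. TP63, the master regulator of stratified epithelium, had a domain of 3252 bp (chr3:189507439-189510690), whose first TSS lay 158270 bp downstream of the canonical TSS, so the domain is at the internal promoter. It was called over 78.1%, in 2 pieces, with levels of 56.5 and 32.9 in control and siDLEU1 cells. PITX1, a homeobox factor of oral epithelium, had the lowest share of the list, 44.3% of 3724 bp, with levels of 97.5 and 53.2. GRHL2, which maintains epithelial junctions, kept 78.7% of 3678 bp. TFAP2A had a pair of domains, of 3023 and 2700 bp, only 115 bp apart, called over 89.4 and 94.6%.

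Growth and signalling genes were also found. MYC, CDK6 and CCND1, which encodes cyclin D1, were the 3 of 19 growth and survival genes with a domain, called over 70.4, 89.2 and 90.9%. The levels were 94.1 and 57.4 at MYC, 71.9 and 43.8 at CDK6, and 127 and 100 at CCND1, in control and siDLEU1 cells. In the domain of MYC, 1204 bp at the left edge, upstream of the gene, were not called. Of 13 genes of the YAP-TEAD pathway, YAP1 kept 77.3% and its partner AJUBA 95.5%. FOSL2 of 14 AP-1 genes, TGIF1 of 16 TGF-beta genes and BRD2 of 20 histone acetylation genes had a domain, called over 72.6, 88.0 and 81.9%. A narrower domain at BRD2 was called over 94.8%. Of 14 matrix proteases and urokinase genes, PLAU and MMP14 did, and MMP14 kept 94.9%.

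Immediate early genes, which respond to growth factors without new protein synthesis, had 5 of 20 in domains, against 1.83% of all genes. Besides ZFP36L1, with 85.1%, these were EGR1 (80.6%), IER2 (74.3%), KLF10 (76.9%) and DUSP4 (95.4%), a phosphatase of MAP kinases. The levels at ZFP36L1 were 132 and 68.9, and those at DUSP4 54.5 and 47.0. Of 17 cancer-related lncRNAs, MALAT1, NEAT1, MIR205HG and MIR31HG had domains, called over 88.6, 91.1, 94.1 and 67.2%. At MALAT1 the level was 111 in control and 58.4 in siDLEU1 cells, and H3K4me3 was in 1 and 5 regions. Of a partial list of 20 replication-dependent histone genes, 5 had domains. These were H1-2, H1-5 and H4C14, called over 78.6, 62.7 and 81.1%, and H2AC6 and H2BC4, which share a domain called over 88.6%. Outside the list, H2AC7, H2AC16, H2AC19, H3C15 and H4C15 also had a TSS in a domain.

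Of 17 interferon genes that the study examined on these samples, 16 had a control H3K27ac region at a TSS and 0 a broad domain. With 3.72% of all genes with a region in domains, a count of 0 in a list of this size is near the background, and the same holds for the lists without a domain named next. The widest was that of IFITM3, of 2288 bp, and the median width was 1086 bp. With the limit at 2000 bp, IFITM3 would be the 1 member. No domain was found either for interferon receptors, JAK kinases and STATs (0 of 13), NF-kB genes (0 of 13), laminin and integrin genes (0 of 15), keratins (0 of 16), EGFR family genes (0 of 10), EMT factors (0 of 12), ribosomal proteins (0 of 36, of which 34 had a region), HOX genes (0 of 39) or genes of other cell types (0 of 13).

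Further groups were formed after the members were known, so nothing is read from their counts, which stand beside a share of 1.83% over all genes. The hnRNP genes, which encode nuclear RNA-binding proteins, had 7 of 24 in domains, called over a median of 83.2%, from HNRNPA1 at 65.4% to HNRNPA2B1 at 93.9%. Of 17 heat-shock genes, 5 had domains, with BAG3 the lowest at 53.8%. Of 23 genes of the histone lysine methyltransferase and demethylase families, 6 had domains, namely ASH1L, SETD2, KMT2E, JARID2, KDM4C and KDM6B. Their median was 87.8% over the widest domain of each. At KDM6B that was an internal domain called over 91.6%, whereas the domain at its canonical TSS was called over 47.0%. Of 8 ephrins, EFNA1, EFNA5 and EFNB1 had domains, called over 86.8, 95.5 and 95.7%. Of 18 cholesterol synthesis enzymes, 3 did, and they kept 64.7% at IDI1, under 50% at MSMO1 and 89.0% at SQLE. G1 cell cycle genes had 6 of 19, with CDKN2C, a CDK inhibitor, the lowest at 65.7%, and the NRF2 and thioredoxin system had 4 of 15.

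The hairpins of 6 microRNAs lay inside domains, of 89 RefSeq hairpins found by exact match in any control region, or 6.74%. All 6 were wholly called in siDLEU1 cells. Of all domain bases 79.6% were called, and the share among the other hairpins is not given here, so nothing is read from this count. The hairpin of miR-21 (chr17:57918627-57918698, plus strand) lay in the domain of VMP1, and that of miR-205 (chr1:209605478-209605587, plus strand) in the domain of its host MIR205HG. Their mature sequences, from RefSeq, are shown because both microRNAs are abundant in squamous carcinoma, with the seed (bases 2 to 8) in capitals.
miR-21-5p: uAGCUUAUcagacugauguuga
miR-205-5p: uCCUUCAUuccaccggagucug
The VMP1 domain was 4248 bp wide, was called over 89.7% in 2 regions, and had levels of 88.1 in control and 44.3 in siDLEU1 cells. The MIR205HG domain, of 4003 bp, was called over 94.1% in 1 region, with levels of 104 and 51.7. Other hairpins in domains were MIR4649 at AEBP1, MIR6743 at BET1L and MIR4453 at FBXW7.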

How the data were processed

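ChIP-seq was performed in HSC3 cells 72 h after transfection with siCONT or siDLEU1, as 1 library per siRNA and mark. By the methods and the labels, the authors sequenced on an Ion Proton System, aligned to hg19 by bowtie2, ran MACS2 on every library and deposited 4 peak lists. The deposited fold enrichment is a ratio over local background, read only within a list. The authors' MACS2 also gave −log10 p and −log10 q. The deposited score, a display value, was not used. The MACS2 settings are not given in the sources used here, and the inputs are not analysed here.

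The members and the gene lists were chosen with earlier results of these data known. Domains were compared with siDLEU1 regions by overlap of at least 1 bp, by the share of their bases covered and by percentile rank on fold enrichment. Fragments at each summit were solved from fold enrichment and p, and matched 100% of the p-values. Summit levels, motif counts, gaps and microRNA hairpins were added after the data were seen. Coordinates are 1-based on GRCh37. The TSSs came from every GENCODE transcript of 19141 protein-coding and 4994 lncRNA genes with a RefSeq entry. The miRNA sequences are from the RefSeq table of GRCh38.p14, placed by exact match to GRCh37. Intervals are 95% Wilson intervals. The overlap and fragment steps were tested on simulated data.

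The genes named were the 20 widest domains, the 10 lowest and 10 highest shares still called, up to 4 genes per list, 5 on each side of the limit, and domains with no H3K4me3, of which there was 1. Others were chosen after their values were seen. Some domains that the rule names are not reported here. Alternatives were other minimum widths, a −log10 q of at least 10, stitching within 1 kb, equal numbers of regions, gaps filled, other ranks and other TSS sets. Python 3.11.15, numpy 2.4.6, pandas 2.3.3, scipy 1.17.1 and matplotlib 3.10.9 were used.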

Additional observations from a re-analysis of the deposited data

How the results depend on the processing

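No paired analysis was possible because there was 1 library for each siRNA and mark, and no replicate could be left out. A share or median was taken as moved when it left the 95% interval of the value in the report, and a count when it differed by more than 1.5 times. Of 54 alternative values, 39 stayed and 15 moved. Only the median rank change could be labelled as reversed in sign, and none of its alternatives was. With equal numbers of regions the siDLEU1 lists were left whole. Those values among the 54 repeated the main ones and add nothing to the 39. With a minimum width of 2000 or 3000 bp there were 928 or 119 domains, 57.7 or 70.6% of them split, and at 3000 bp 100% overlapped. At 2000 bp, 54 genes of the lists lay in a domain, against 28 of 353. With a −log10 q of at least 10, 70.4% of the length was still called, 96.1% of domains were overlapped, 17.7% kept under 50%, 35.4% were split, and the median rank change was −12.1 points. Stitching within 1 kb gave 983 domains, of which 8.65% kept under 50% and 7.73% were split. Filling gaps of up to 500 bp raised the length still called to 85.6%. Leaving out domains of high local background or without a TSS, alternatives added after the data were seen, left the length still called at 79.5 and 79.6%. With 1 library per condition, differences between siRNA, library and immunoprecipitation cannot be told apart, and counting intervals do not cover them.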

Other observations

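Along chromosomes, 9 pairs of domains lay close together, the farthest 9154 bp apart. They included the BRD2 domains, 650 bp apart, the RGMB domains, 1615 bp apart, the KDM6B domains, 5028 bp apart, and 3 consecutive pairs in the histone cluster of chromosome 1. Chromosome 1 held the most domains, 38, followed by chromosome 6 with 30 and chromosome 5 with 29. Over the 333 domains, the share still called had a Spearman rho of −0.01 with width, 0.19 with the control summit level, 0.24 with GC content and 0.33 with the H3K4me3 cover in siDLEU1 cells. These are descriptions across regions of the same libraries, which share depth and background.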
